A study of Rattus norvegicus with 24 samples.

Results

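The genes described here are 9 steroid hormone receptors and steroid-handling genes of the rat urethra, taken by symbol from the 32883 genes of the table. They are the estrogen receptors Esr1 and Esr2, the progesterone receptor Pgr, the glucocorticoid receptor Nr3c1, the mineralocorticoid receptor Nr3c2, the cholesterol carrier Star, and the enzymes Cyp11a1, Akr1c3 and Hsd11b1. In the same order their Ensembl identifiers are ENSRNOG00000019358, ENSRNOG00000005343, ENSRNOG00000006831, ENSRNOG00000014096, ENSRNOG00000034007, ENSRNOG00000015052, ENSRNOG00000008074, ENSRNOG00000017531 and ENSRNOG00000005861, and each symbol had 1 row. They were chosen with earlier results of these data known, and Cyp11a1 and Akr1c3 had been singled out by the study at 7d.

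Urethras came from 12-week-old virgin female Sprague-Dawley rats, all of which had a simulated vaginal delivery (SVD), that is a crush of the pudendal nerves with distension of the vagina. Soon after the injury they received through the aorta either saline, allogeneic mesoangioblasts (MABs-allo, vessel-associated muscle stem cells) or MABs-allo carrying a vector that overexpresses VEGF (MABs-allo-VEGF), and 4 samples per treatment were collected at 3d and 4 at 7d. The labels give the genotype as WT for saline and MABs-allo and as VEGF OE for MABs-allo-VEGF and mark 2 of the MABs-allo-VEGF 7d samples, replicates 6 and 7, as recovered. Allogeneic MABs came from muscle of a donor rat as an expanded line, and both kinds carried a lentiviral reporter (eGFP and luciferase under a CMV promoter). The VEGF vector was driven by an SFFV promoter, and no uninjured urethra was analysed here.

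Steroid receptors are transcription factors that bind a hormone and then act on DNA. Estrogen and progesterone receptors are present in the stroma and muscle of the female lower urinary tract, and the glucocorticoid receptor in nearly every cell. Steroid synthesis starts when Star carries cholesterol into the mitochondrion, where Cyp11a1 cleaves its side chain to pregnenolone. Hsd11b1 regenerates active glucocorticoid inside cells, and the aldo-keto reductase Akr1c3 turns active progestins into weaker ones.

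Values are normalized gene counts, that is reads per gene divided by the size factor of the sample. The totals ran from 2170695 to 10166052 reads, the lowest in MABs-allo 3d, so that a single read stood for 1.67 to 9.23 normalized counts. P-values from limma rest on 1 spread per gene, pooled over the samples within all groups of the fit. A group with a wide spread thus enters every comparison of that gene. Values per group are always given in the order of replicates 6, 8, 9 and 10 in saline 3d, 1 to 4 in both cell-treated groups of 3d, 1, 2, 3 and 5 in saline 7d, 7.2, 9, 11 and 13 in MABs-allo 7d, and 6, 7, 11 and 12 in MABs-allo-VEGF 7d. Of the 9 genes, 8 had a mean of at least 2 normalized counts over the 24 samples and entered the test. Star passed that limit only through MABs-allo 3d, the group in which it was highest (mean 11.7, against 1.78 over the other 20 samples), so it had to differ there and is described without a test, which leaves 7 genes in the counts that involve that group. Of the list genes named further on, the same holds for Hif3a and Hand2. A gene was called at an adjusted p below 0.05 from limma and a log2 fold change above 1 or below -1, and fold changes are on the log2(normalized gene count + 1) scale. Along the first principal component of the 500 most variable genes, saline 3d replicate 8 had a score of -52.3, within the range of the 7d samples (-55.8 to -26.6). The other saline 3d samples scored 54.6, -14.9 and -6.43, and MABs-allo-VEGF 3d replicate 4 scored 0.70, against 57.3 to 75.2 in the rest of its group. The tissue carried its own markers, since a sum over 13 smooth muscle, striated muscle and urothelial genes lay between 101569 and 446067 normalized counts in all 24 samples. In tissue samples, fewer cells of a type and less RNA per cell cannot be told apart.

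Esr1, the main estrogen receptor of the urogenital tract, had higher group means at 3d than at 7d in every treatment. With all samples, limma called this in the cell-treated urethras. At 3d its normalized gene count was 833, 0, 365 and 605 in saline, 1122, 1904, 2954 and 852 in MABs-allo, and 1514, 900.1, 1438 and 489.8 in MABs-allo-VEGF. At 7d it was 33.8, 44.8, 16.7 and 40.9 in saline, 105, 185, 75.1 and 45.7 in MABs-allo, and 97.9, 96.98, 31.0 and 78.8 in MABs-allo-VEGF. Every cell-treated sample of 3d stood above every sample of 7d, and the single low sample of 3d was saline replicate 8, which held 0 Esr1 reads. By group means the order ran from MABs-allo 3d (1708 ± 943, SD, n = 4) over MABs-allo-VEGF 3d (1085 ± 482) and saline 3d (451 ± 356) to MABs-allo 7d (103 ± 60.2), MABs-allo-VEGF 7d (76.2 ± 31.4) and saline 7d (34.1 ± 12.4). Samples of each pair of neighbours in that order overlapped.

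Within MABs-allo, Esr1 was higher at 3d than at 7d by a log2 fold change of 4.06 ± 1.26 (SE; adjusted p = 0.0169 from limma), a ratio of means of 16.6. Within MABs-allo-VEGF the difference was 3.81 ± 1.26 (adjusted p = 0.0344), a ratio of 14.2. The SE was the same in each comparison because the groups share 1 spread. On the log2 scale the SD of saline 3d was 4.60, against 0.62 to 0.84 in the other groups. The call ended without MABs-allo 3d replicate 3 (adjusted p = 0.0504) or MABs-allo 7d replicate 13 (0.0511), and in MABs-allo-VEGF without any 1 of its samples except 3d replicate 4 (0.0513 to 0.0954). Within saline the ratio of means was 13.2, and the log2 fold change of 1.82 ± 1.26 was not called by limma (adjusted p = 0.465). Without saline 3d replicate 8 it was 4.11 (adjusted p = 4.85e-05). With all samples it was called by DESeq2 (3.72, adjusted p = 5.9e-05) and edgeR (3.63, adjusted p = 0.00813).

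At 3d, Esr1 was higher in MABs-allo than in saline (log2 fold change 3.71 ± 1.26, adjusted p = 0.048), and no sample of the groups overlapped. This call was fragile. Without saline 3d replicate 8, the sample with 0 reads, the log2 fold change was 1.42 (adjusted p = 0.117). It also ended when any other sample was left out, with adjusted p from 0.0507 to 0.1205, except MABs-allo-VEGF 3d replicate 4, MABs-allo 3d replicate 4, and replicates 6 and 10 of saline 3d. With only the compared groups in the fit the adjusted p was 0.2199. Saline 3d replicate 8 also held the most adipocyte marker RNA of its group, with a sum over 14 markers of 38573 normalized counts against 5633 to 13509.6 in the other saline 3d samples, and its part in the result was not tested. Esr2, the second estrogen receptor, gave 3 reads in all 24 samples, 1 each in saline 3d replicate 6, MABs-allo 3d replicate 1 and MABs-allo 7d replicate 7.2. It was not tested, and a count of 0 in a library allows up to 3 reads.

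Pgr, a classical estrogen-induced receptor, was read in all 24 samples at low counts. Its values at 3d were 96.4, 3.92, 46.5 and 28.2 in saline, 99.4, 202, 286 and 65.1 in MABs-allo, and 37.8, 16.7, 121 and 40.1 in MABs-allo-VEGF. At 7d they were 27.1, 24.9, 30.1 and 34.6 in saline, 6.20, 16.6, 10.01 and 99.6 in MABs-allo, and 61.7, 59.9, 9.31 and 15.8 in MABs-allo-VEGF. MABs-allo 3d held the highest values, and apart from 1 sample MABs-allo 7d held low ones. Pgr was called higher at 3d than at 7d within MABs-allo (log2 fold change 2.86 ± 0.88, adjusted p = 0.0168), although MABs-allo 7d replicate 13 lay inside the 3d range. Leaving out MABs-allo 3d replicate 3 or MABs-allo 7d replicate 7.2 or 11 ended the call (adjusted p 0.0503 to 0.0636). Against saline at 3d, the log2 fold change of MABs-allo was 2.30 ± 0.88 and missed the threshold (adjusted p = 0.0778), which it passed without saline 3d replicate 6 (2.89, adjusted p = 0.0285).

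Nr3c1, the glucocorticoid receptor, was higher at 3d than at 7d in both cell-treated groups. At 3d it counted 2493, 1003, 1805 and 1791 in saline, 2989, 2993, 3471 and 2419 in MABs-allo, and 3428, 2900.4, 3244 and 1429 in MABs-allo-VEGF. At 7d it counted 1062, 936, 988 and 959 in saline, 836, 1093, 731 and 1187 in MABs-allo, and 1121, 1001, 1102 and 1157 in MABs-allo-VEGF. The 12 samples of 7d thus fell into a narrow band, below all 3d samples except saline 3d replicate 8.

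The 3d level of Nr3c1 exceeded the 7d level by a log2 fold change of 1.64 ± 0.25 in MABs-allo (adjusted p = 0.000128) and of 1.25 ± 0.25 in MABs-allo-VEGF (adjusted p = 0.00145). Both calls held whichever sample was left out. In saline the difference was 0.77 ± 0.25 and was not called (adjusted p = 0.0893). Without saline 3d replicate 8 it was 1.02 (adjusted p = 0.00757). At 3d, MABs-allo exceeded saline by 0.80 ± 0.25, which passed the adjusted p (0.037) but not the fold limit.

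Nr3c2, the aldosterone-binding mineralocorticoid receptor, was seen almost only at 3d in cell-treated urethras. It had 24 reads over the 4 MABs-allo 3d samples, with normalized gene counts of 42.6, 16.4, 92.3 and 27.1. MABs-allo-VEGF 3d gave 5.41, 0, 40.4 and 4.45, and saline 3d gave 3.44, 0, 0 and 0. At 7d it was at 0 in the 4 saline samples, at 3.10, 9.93, 0 and 0 in MABs-allo, and at 3.63, 0, 0 and 0 in MABs-allo-VEGF. It was called higher in MABs-allo than in saline at 3d (log2 fold change 4.69 ± 0.98, adjusted p = 0.00717), and the ratio of their read rates was 43.2 with a 95% counting interval of 7.05 to 1777. The call was lost when only the compared groups were fitted (adjusted p = 0.0608). It was also called higher at 3d than at 7d within MABs-allo (3.86 ± 0.98, adjusted p = 0.00474). The 3d difference of MABs-allo-VEGF from MABs-allo, a log2 fold change of -2.61 ± 0.98, was not called (adjusted p = 0.689). Within MABs-allo-VEGF, 3d exceeded 7d by 2.07 ± 0.98 (adjusted p = 0.14), which was called without 3d replicate 2 (2.95, adjusted p = 0.0461).

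**Figure D1:**
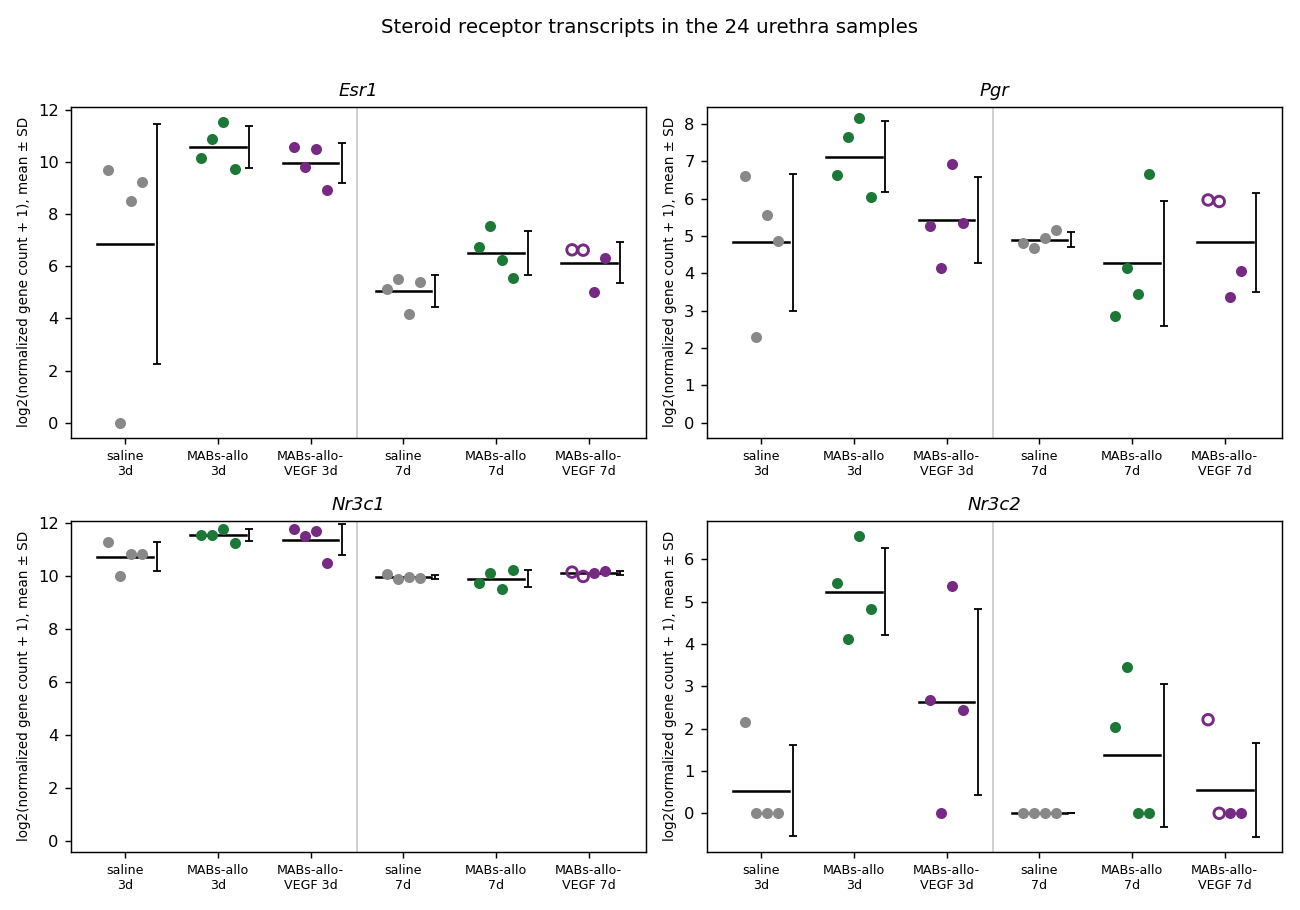
Esr1, Pgr, Nr3c1 and Nr3c2 by group on the log2(normalized gene count + 1) scale, each point 1 sample, open circles the recovered samples, horizontal lines the group means and bars the SD. Esr1 and Nr3c1 lie higher at 3d than at 7d apart from saline 3d replicate 8, which stands at 0 for Esr1.

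Star had 15 reads in all, no more than 3 in any sample. At 3d it counted 21.3, 5.47, 9.23 and 10.8 in MABs-allo, 5.41, 8.33, 5.04 and 0 in MABs-allo-VEGF, and 3.44, 0, 0 and 0 in saline. At 7d only 3 of the 12 samples held a read, at 3.35 in saline replicate 3 and at 1.67 and 8.30 in MABs-allo replicates 11 and 13. MABs-allo 3d thus held 7 of the 15 reads, MABs-allo-VEGF 3d and MABs-allo 7d held 3 each, and the saline groups held 1 each.

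Read together, 2 of 7 genes (Esr1 and Nr3c2) were called higher and 0 lower in MABs-allo than in saline at 3d, beside 9.4 percent of all 16287 genes called higher and 2.86 percent called lower. Groups did not overlap for those 2 genes, as for 14.7 percent of all genes. DESeq2 called Esr1 and Nr3c2, and edgeR called Nr3c2 only. Cyp11a1 differed by -2.78 ± 1.04 (adjusted p = 0.0699), and without saline 3d replicate 9 by -3.71 (adjusted p = 0.0358).

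Between MABs-allo-VEGF and saline at 3d, limma called 0 of the 8 genes (3 at an unadjusted p below 0.05) beside 0.0307 percent of all genes, and neither DESeq2 nor edgeR called any. The fits were repeated in 22 samples, without replicate 6 of saline 3d and replicate 4 of MABs-allo-VEGF 3d. On the first principal component these were the samples of their groups that lay nearest to the other treatment, so that leaving them out widens the gap between treatments by its construction, while saline 3d replicate 8 was kept. Calls gained in that fit are therefore given only as values: Pgr joined the calls of MABs-allo against saline, where 13.8 percent of all genes were called higher, and Esr1 and Nr3c1 were called for MABs-allo-VEGF against saline, where 11.4 percent were. Comparing the 3d samples of MABs-allo-VEGF with those of MABs-allo, limma called 0 (1 at an unadjusted p below 0.05), as did DESeq2 and edgeR, beside 0.00614 percent of all genes.

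From 3d to 7d the set split. Within MABs-allo, Esr1, Pgr, Nr3c1 and Nr3c2 were higher at 3d, 4 of 7 genes beside 17.0 percent of all genes, and Cyp11a1 was lower, beside 6.05 percent. Groups did not overlap for 4 of the 7 (Esr1, Nr3c1, Nr3c2 and Cyp11a1), as for 27.0 percent of all genes. Without MABs-allo 3d replicate 3, 3 of the 5 calls were left (Nr3c1, Nr3c2 and Cyp11a1). The call of Cyp11a1 is not read as a test, since the study picked the gene from the 7d samples. Within MABs-allo-VEGF, Esr1 and Nr3c1 were higher at 3d, 2 genes beside 13.1 percent, and 0 were lower by limma, DESeq2 or edgeR, beside 2.24 percent. Their groups did not overlap, as for 21.8 percent of all genes. Within saline limma called 0 of 8 (3 at an unadjusted p below 0.05) beside 3.19 percent of all genes, whereas DESeq2 called Esr1 and Cyp11a1 and edgeR called Esr1. Without saline 3d replicate 8, limma called Esr1, Nr3c1 and Cyp11a1.

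**Figure D2:**
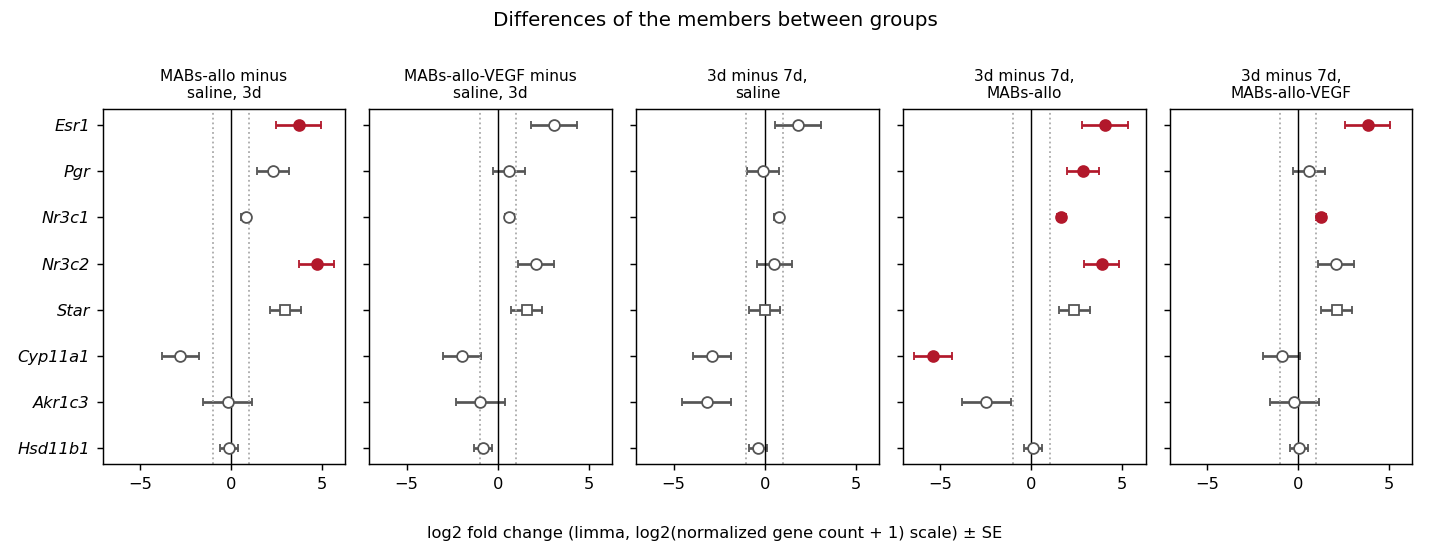
Log2 fold changes with SE from limma for the 8 tested genes in 5 comparisons, on the log2(normalized gene count + 1) scale, where filled red points were called, open squares mark Star, whose fitted values are drawn without a call, and dotted lines mark a log2 fold change of 1 in either direction. The receptors lie to the right (higher at 3d) and Cyp11a1 to the left within MABs-allo, at 1.64 for Nr3c1 and -5.42 for Cyp11a1.

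Cyp11a1, the side-chain cleavage enzyme that makes pregnenolone, showed the opposite order of days. At 7d it counted 6.76, 107, 56.9 and 138 in saline and 31.0, 13.2, 81.7 and 87.2 in MABs-allo, but 0, 2.85, 3.10 and 6.30 in MABs-allo-VEGF. At 3d it counted 6.89, 23.5, 0 and 10.6 in saline, 0 in all 4 MABs-allo samples, and 0, 8.33, 0 and 0 in MABs-allo-VEGF. Values above 30 were thus found only at 7d, in 3 saline and 3 MABs-allo samples. Within MABs-allo it was lower at 3d than at 7d (log2 fold change -5.42 ± 1.04, adjusted p = 0.000577), and with 3 reads per library as the limit for a count of 0 it was at least 2.61-fold lower. The call held whichever sample was left out. However, the study picked Cyp11a1 from the 7d samples, where MABs-allo stood above MABs-allo-VEGF. The p-value thus follows in part from that choice and is not read as a test. Since all 3d samples were at 0, the fitted value itself depends on the pseudocount. Within saline the log2 fold change was -2.89 ± 1.04 (adjusted p = 0.119), and it was called without saline 3d replicate 8 (-3.50, adjusted p = 0.0428) or saline 7d replicate 1 (-3.80, adjusted p = 0.0445).

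In MABs-allo-VEGF at 7d, Cyp11a1 stood on 4 reads in 4 samples, against 106 in saline and 84 in MABs-allo. No MABs-allo-VEGF sample overlapped with either group, a pattern shared by 6.04 percent of all genes against saline and by 1.84 percent against MABs-allo. Against saline this rested on the size factors alone, since saline replicate 1 (6.76) and MABs-allo-VEGF replicate 12 (6.30) held 2 reads each. The group mean was 3.07 ± 2.58 (SD, n = 4), against 53.3 ± 36.8 in MABs-allo, a 17.4-fold difference of means that is given without a test, since the study picked the gene from these samples. Against saline, where the mean was 77.3 ± 57.7, the log2 fold change of -3.96 ± 1.04 was not called (adjusted p = 0.433 from limma), and DESeq2 on the back-calculated reads called it (adjusted p = 0.0463). The 2 comparisons share the MABs-allo-VEGF samples. The p-values against saline thus also follow in part from the study's choice and are not read as a test.

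Akr1c3 followed a similar course at lower counts. At 7d it counted 10.1, 97.1, 13.4 and 53.5 in saline, 34.1, 0, 23.4 and 87.2 in MABs-allo, and 0, 0, 15.5 and 0 in MABs-allo-VEGF. At 3d it counted 13.8, 7.84, 0 and 0 in saline, 0, 5.47, 0 and 10.8 in MABs-allo, and 0, 8.33, 0 and 0 in MABs-allo-VEGF. The highest values of all belonged to saline 7d replicate 2 and MABs-allo 7d replicate 13. Between MABs-allo-VEGF and saline at 7d the log2 fold change was -3.92 ± 1.34 (adjusted p = 0.605). Within MABs-allo, the 3d minus 7d difference was -2.48 ± 1.34 (adjusted p = 0.169), and within saline it was -3.17 ± 1.34 (adjusted p = 0.196). Akr1c3 belongs to a family of similar genes and reads with several positions were discarded, so its counts are uncertain.

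The bases before the RefSeq start of both enzymes are shown because both had their lowest 7d means in MABs-allo-VEGF. The stretches are 250 bases, 5′ to 3′, from assembly GRCr8, which is not the build of the counts (Rnor6.0), on the plus strand at chr8:67318415-67318664 for Cyp11a1 and chr17:71020634-71020883 for Akr1c3. Capitals mark matches, on either strand, to any of 6 motifs: the steroidogenic factor 1 site CAAGGTCA, the nuclear receptor half-site AGGTCA, which lies within it, the palindromic estrogen and glucocorticoid response elements, the cAMP element TGACGTCA and the TATA box TATAAA.
Cyp11a1: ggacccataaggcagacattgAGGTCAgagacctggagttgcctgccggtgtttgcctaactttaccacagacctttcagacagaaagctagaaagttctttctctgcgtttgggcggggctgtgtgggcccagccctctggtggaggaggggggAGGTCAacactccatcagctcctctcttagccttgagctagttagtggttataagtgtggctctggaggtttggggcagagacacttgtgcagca
Akr1c3: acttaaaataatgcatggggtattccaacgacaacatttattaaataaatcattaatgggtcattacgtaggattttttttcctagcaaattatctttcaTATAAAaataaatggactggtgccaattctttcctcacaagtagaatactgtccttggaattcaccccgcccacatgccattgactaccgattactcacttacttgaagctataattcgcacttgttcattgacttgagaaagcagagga

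The Cyp11a1 stretch holds the AGGTCA half-site at 229 to 224 and again at 95 to 90 bases before the start. At least 1 such half-site was present in 14.1 percent of the 33469 stretches of the table, and 2 or more in 1.27 percent. The Akr1c3 stretch holds TATAAA at 150 to 145 bases before the start, a motif found in 12.9 percent of stretches. The other 4 motifs, present in 1.33 (CAAGGTCA), 0.0239 (estrogen), 0.0418 (glucocorticoid) and 1.59 percent (cAMP element) of stretches, had no match in these windows. The table holds a promoter for 6 of the 9 genes.

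Hsd11b1 was read well in every sample, and none of its differences was called. At 3d it counted 737, 662, 311 and 260.4 in saline, 227, 579.9, 794 and 266 in MABs-allo, and 141, 242, 252 and 481 in MABs-allo-VEGF. At 7d it counted 717, 398, 653 and 585 in saline, 257, 215, 387 and 1050.0 in MABs-allo, and 457, 154, 286 and 189 in MABs-allo-VEGF. Groups overlapped in every comparison, and the spread within MABs-allo 7d alone covered most of the range. At 7d, MABs-allo-VEGF differed from saline by a log2 fold change of -1.21 ± 0.50 (adjusted p = 0.733), and at 3d by -0.81 ± 0.50 (adjusted p = 0.404). Its 3d minus 7d differences were -0.37 ± 0.50 in saline, 0.08 ± 0.50 in MABs-allo and 0.03 ± 0.50 in MABs-allo-VEGF.

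**Figure D3:**
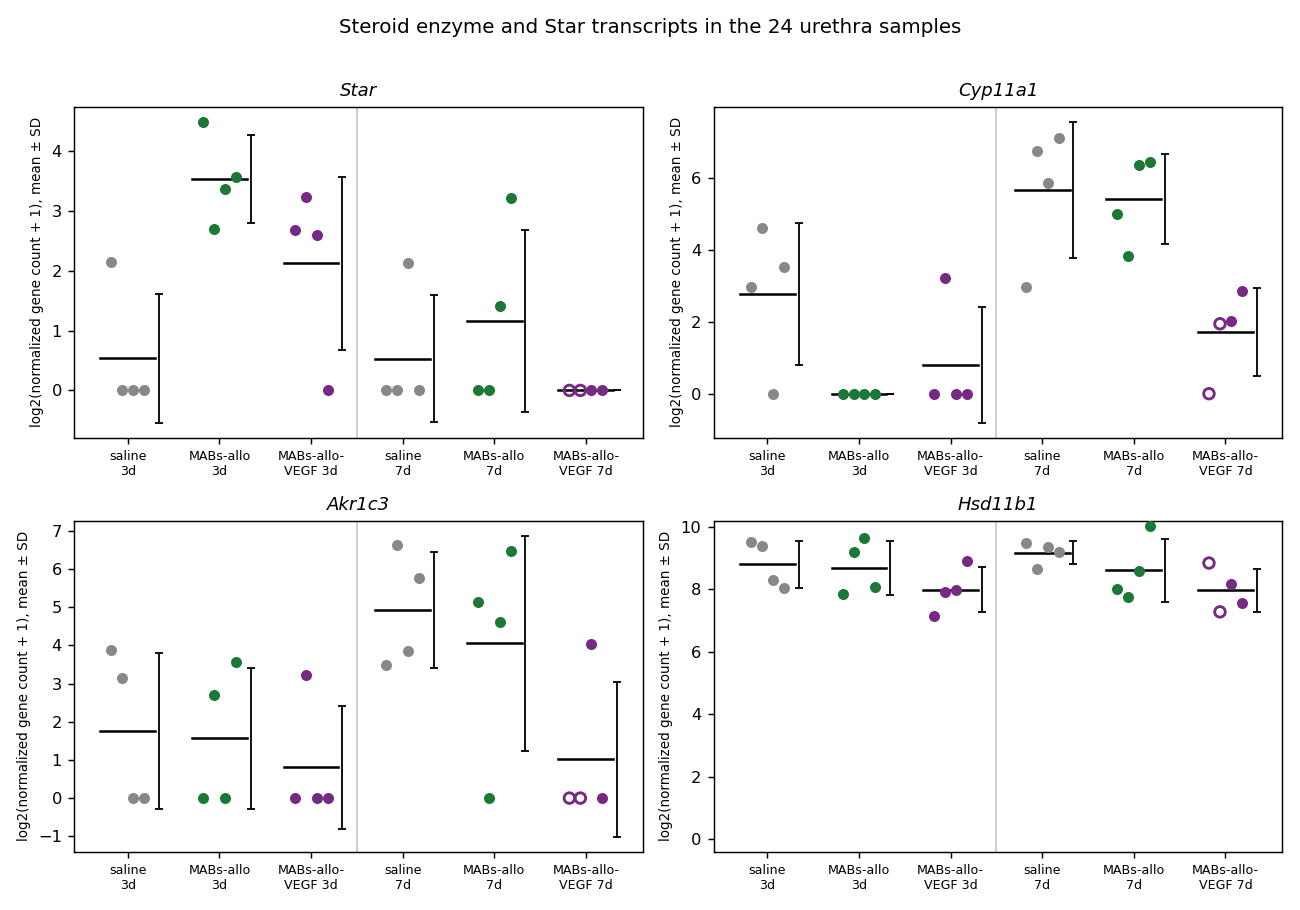
Star, Cyp11a1, Akr1c3 and Hsd11b1 by group on the log2(normalized gene count + 1) scale, each point 1 sample, open circles the recovered samples, horizontal lines the group means and bars the SD. Cyp11a1 and Akr1c3 are high in most saline and MABs-allo samples of 7d and low in MABs-allo-VEGF 7d, where Cyp11a1 reached 6.30 at most and Akr1c3 stood at 15.5 in 1 sample and at 0 in the other 3.

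At 7d, limma called 0 of the 8 genes between MABs-allo and saline (0 at an unadjusted p below 0.05), between MABs-allo-VEGF and saline (3) and between MABs-allo-VEGF and MABs-allo (2), each beside 0.0 percent of all genes. The 2 are Cyp11a1 and Akr1c3, and the 3 are these and Hsd11b1. The study singled out Cyp11a1 and Akr1c3 from these 7d samples. Their low p-values follow in part from that choice and are not read as a test. DESeq2 called Cyp11a1 between MABs-allo-VEGF and saline and none of the 9 otherwise, and edgeR called none. Esr1 was the only tested gene whose MABs-allo and saline samples did not overlap at 7d, as 4.87 percent of all genes did not, with means of 103 and 34.1 (log2 fold change 1.47 ± 1.26, adjusted p = 0.941).

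With limma, the test of whether the effect of treatment differed between 3d and 7d called 0 of 8 genes for MABs-allo against saline (3 at an unadjusted p below 0.05) and 0 for MABs-allo-VEGF against saline (0 at that level), each beside 0.0 percent of all genes. DESeq2 and edgeR also called 0 in both. A call at 3d that is missing at 7d is therefore not shown to differ between the days.

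Markers of fat moved with Cyp11a1 and Akr1c3 at 7d. The summed normalized gene count of 14 adipocyte markers was 23075, 81651.5, 57373 and 82869.7 in saline, 27633, 15198.5, 46685 and 118189 in MABs-allo, and 15363, 12083, 18462 and 10009 in MABs-allo-VEGF, in the same order of samples as above. The lowest Cyp11a1 values of saline and of MABs-allo belonged to the samples with the lowest marker sums of their groups, saline replicate 1 and MABs-allo replicate 9. In MABs-allo-VEGF, with 4 Cyp11a1 reads in all, the sample with the lowest sum, replicate 12, instead held the highest value (6.30). Adipoq, the adipocyte hormone adiponectin, ran from 318 to 3629 in saline, from 86.1 to 5569 in MABs-allo and from 2.85 to 419 in MABs-allo-VEGF. At 3d the marker sums were 4799.7 to 8294 in MABs-allo, where Cyp11a1 had 0 reads. Of the 13 adipocyte markers tested, 11 were called lower at 3d than at 7d within MABs-allo, 6 within saline, where 0.602 percent of all genes were, and 0 within MABs-allo-VEGF (2 at an unadjusted p below 0.05, with 2 called by DESeq2 and 0 by edgeR). Within saline 1 was called in the 22 samples, whose choice narrows the gap between days there. Between MABs-allo-VEGF and saline at 7d, limma called 0 of the 13 (11 at an unadjusted p below 0.05), DESeq2 called 3 lower and edgeR 0, and the median log2 fold change was -4.14 with no marker above 0. The study had already named Lep and Aqp7 as lower in MABs-allo-VEGF than in MABs-allo at 7d. It also named Adipoq, Plin1, Cidec, Retn, Pck1 and Aqp7 as lower in recovered urethras. These low values are thus in part given by that choice of genes. The part of adipocytes in the enzyme values was not tested.

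Most markers of the steroidogenic glands had few or no reads. Of 13 adrenal and gonadal markers, 11 were in the table, and Nr5a1, the master regulator of steroidogenic cells, together with Foxl2 and Fshr had 0 reads in all 24 samples. Cyp17a1 and Cyp19a1 had 1 read each, Cyp21a1 had 3, and Lhcgr had 5, all of them in MABs-allo 3d. The other 4 reached the mean needed for testing. Inha, an inhibin subunit, was read in every group, with 74 to 166 reads per group and 783 in all. Inhba, a gene of other cells too, was higher at 3d in each treatment, Insl3 was lower at 3d within MABs-allo (log2 fold change -2.56), and Amh had 20 reads.

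**Figure D4:**
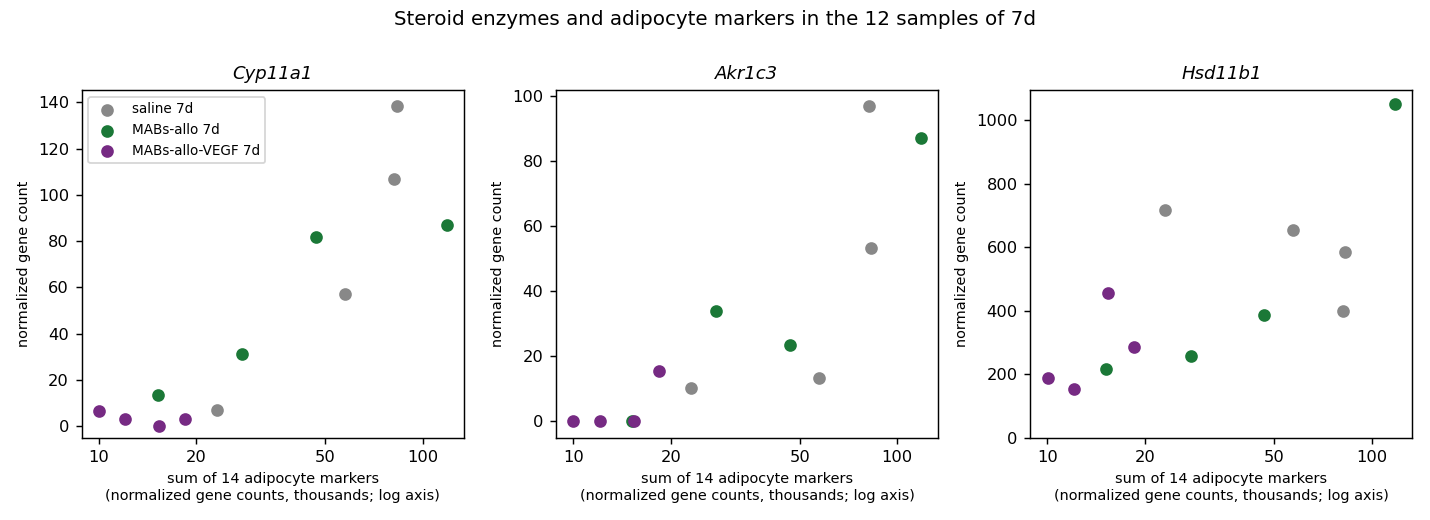
Normalized gene counts of Cyp11a1, Akr1c3 and Hsd11b1 in the 12 samples of 7d against the sum of 14 adipocyte markers (log axis), colored by treatment. MABs-allo-VEGF samples lie at the lower left for Cyp11a1, with marker sums of 10009 to 18462.

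Genes whose values were most like those of a member were sought among 12755 genes with a mean of at least 20, by Pearson r of log2(normalized gene count + 1) over the 24 samples, as a description. For Cyp11a1 they were Aqp7 (r = 0.91), an aquaglyceroporin of fat cells that is also on the adipocyte list, Plekhb2 (0.89) and Retsat (0.87), an enzyme of retinol metabolism. After group means were subtracted these r were 0.65, 0.73 and 0.66. For Esr1 they were Lpp (0.98), Eif4g1 (0.98) and LOC681282 (0.97), with 0.96, 0.96 and 0.95 after subtraction. For Nr3c1 they were Prkacb (0.97), Atf2 (0.97) and AABR07040412.1 (0.97), with 0.85, 0.85 and 0.91. Pgr had weaker neighbours (Rnf11l1, Trappc9 and Pygb, each 0.80), as had Hsd11b1 (Thbs2 0.79, Eri1 0.74 and Ciao2a 0.73). Samples share depth and the split between days, which enters every r.

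The genes around the receptors were followed through lists chosen for this description, and the values in parentheses for them are log2 fold changes. Among the other steroid receptors, Paqr8, a membrane progestin receptor, was called higher at 3d than at 7d within MABs-allo (adjusted p = 0.012), at a mean of 77.9 ± 110.0 at 3d (SD, n = 4) and 0 in all 4 samples of 7d. Of 19 chaperones and coregulators, 3 were called higher at 3d than at 7d within MABs-allo, about the share of all genes (17.0 percent). Within MABs-allo-VEGF 4 were, beside 13.1 percent. The coactivators Ncoa3 (5.27 and 5.40) and Ncoa2 (6.51 and 4.06) were higher in both. Next came Crebbp (1.19) in MABs-allo and Ep300 (1.93) in MABs-allo-VEGF. In MABs-allo 2 were lower, beside 6.05 percent of all genes, the immunophilin Fkbp5 (-2.13) and the chaperone Hspa8 (-1.39). Ncoa2 and Ncoa3 were also the 2 genes of that list called in MABs-allo against saline at 3d (4.80 and 4.38), about the share of all genes called higher there (9.4 percent).

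Within MABs-allo, most genes known to respond to glucocorticoids were lower at 3d. There 12 of 19 list genes, Hif3a left out, were called lower than at 7d, beside 6.05 percent of all genes. With Hif3a included, the median log2 fold change was -1.60 against 0.06 over all genes. The largest falls were those of the metallothioneins Mt2A (-4.00 ± 0.64, adjusted p = 0.000164) and Mt1 (-3.44 ± 0.60, adjusted p = 0.000296) and of Fam107a (-3.07 ± 0.57), while Pdk4 (2.88) and Cdkn1c (1.10) were called higher, 2 of 19 genes without Hif3a, a share not above the 17.0 percent of all genes. Within MABs-allo-VEGF, 6 of 20 were lower, beside 2.24 percent of all genes, and 1 higher (median -1.36), led by Fam107a (-2.55), Ddit4 (-2.28) and Map3k6 (-2.16), with Pdk4 at 3.96. Within saline, limma called 0 of the 20 (9 at an unadjusted p below 0.05, median -0.84), whereas DESeq2 called 1 higher and 3 lower and edgeR 3 lower. The limma counts were the same in the 22 samples. At 3d, Pdk4 (3.997) was higher in MABs-allo than in saline. Hif3a had a mean of 14.1 in MABs-allo 3d and 0 in saline 3d and MABs-allo 7d. Many of these genes also respond to injury, hypoxia or feeding, and the part of such signals was not tested.

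Several genes that bring cholesterol to steroid synthesis were lower at 3d. Within MABs-allo, 7 of 18 were lower (median -0.67), beside 6.05 percent of all genes, including the hormone-sensitive lipase Lipe (-2.78 ± 0.47, adjusted p = 0.000224), which is also on the adipocyte list. The 3 genes higher at 3d were about the share of all genes (17.0 percent), namely Soat1 (2.89), which esterifies cholesterol, Npc1 (1.26) and Acbd3 (1.04). Within MABs-allo-VEGF, 5 were lower, beside 2.24 percent, among them Hmgcs1 (-2.44), an early enzyme of cholesterol synthesis, and Sqle (-1.71), and Soat1 (3.04) was higher. Within saline, 3 were lower, among them Hmgcs1 (-1.41). In the 22 samples, whose choice narrows the gap between days within saline, 1 of these 3 calls was left. Npc1 (1.06) was higher and Lipe (-1.43) lower in MABs-allo than in saline at 3d.

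In the other lists few genes were called. Of 8 tested genes of steroid synthesis, Srd5a3 was lower in MABs-allo at 3d, both against saline (-1.24) and against 7d (-1.59). Of 20 tested genes that interconvert or inactivate steroids, Hsd17b7, which also serves cholesterol synthesis, was lower at 3d in MABs-allo (-2.65), MABs-allo-VEGF (-1.94) and saline (-1.98). The last 2 of these calls were lost in the 22 samples, whose choice narrows the gap between days within saline. Hsd17b13 (-1.65) was also lower in MABs-allo. H6pd, the enzyme that fuels Hsd11b1, was higher in MABs-allo at 3d, by 1.86 ± 0.56 against saline (adjusted p = 0.0299) and by 1.61 against 7d. Of 16 tested estrogen- and progesterone-responsive genes, Myb was higher in MABs-allo at 3d, against saline (2.37, a call lost in the 22 samples) and against 7d (2.61). Hand2 had a mean of 21.9 in MABs-allo 3d and 1.10 over the other 20 samples. Within MABs-allo-VEGF, Cited2 (1.15) was higher and Tff3 (-3.29) and Areg (-2.62) lower at 3d. Of 10 tested mineralocorticoid-responsive genes, none was called higher at 3d, and Sgk1 and Tsc22d3 were lower in MABs-allo (-1.50 and -2.02) and MABs-allo-VEGF (-1.77 and -1.89). Sgk1, Tsc22d3 and Fkbp5 also stand in the glucocorticoid-responsive list.

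**Figure D5:**
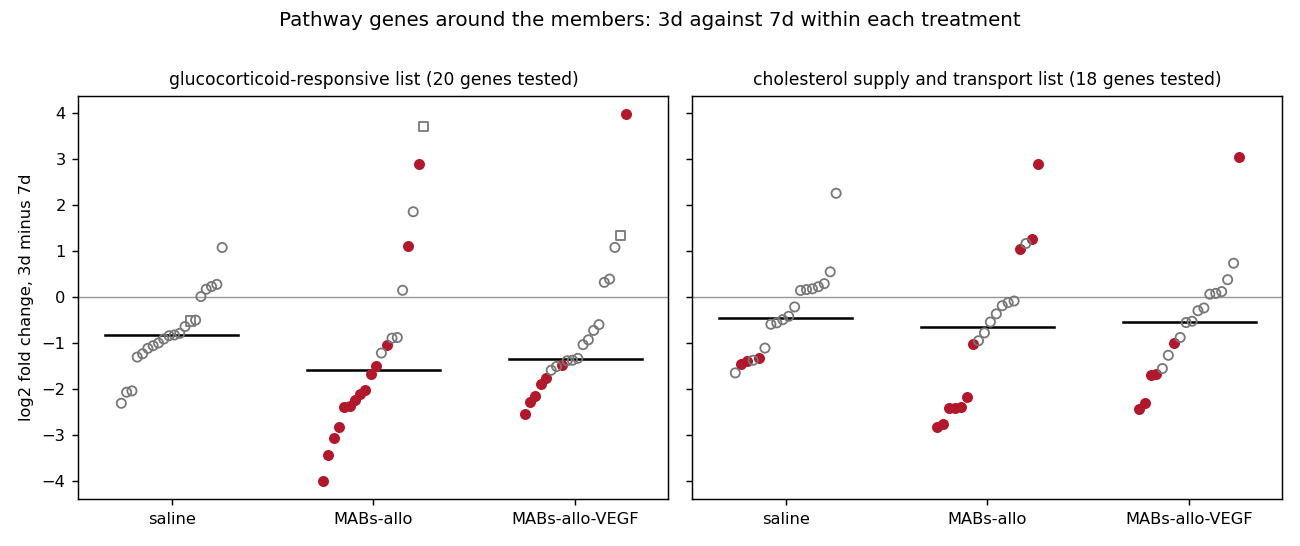
Log2 fold changes of 3d minus 7d from limma for the glucocorticoid-responsive genes and the genes of cholesterol supply and transport, within each treatment; each point is 1 gene, filled red points were called, open squares mark Hif3a, drawn without a call, and black lines are medians. The medians of the glucocorticoid-responsive genes, Hif3a included, lie at -0.84 in saline, -1.60 in MABs-allo and -1.36 in MABs-allo-VEGF.

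Other cell types moved with the days too. The summed count of 8 striated muscle differentiation genes was 13107 to 33031 in MABs-allo and 11287 to 18002 in MABs-allo-VEGF at 3d, against 1929.8 to 7741 in saline at 3d and 1669.5 to 8669 in all samples of 7d. Mast cell markers summed to 273.5 to 383 in MABs-allo at 3d, against 785 to 5025 in saline, and 8 of 10 were called lower, beside 2.86 percent of all genes. Of 7 fibroblast markers, 2 were called lower there. Their part in the receptor values was not tested.

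In the 2 recovered MABs-allo-VEGF samples of 7d, Pgr counted 61.7 and 59.9, against 9.31 and 15.8 in the other 2 samples of that group. The log2 fold change was 2.23 ± 1.01 and was not called (adjusted p = 1 from limma over the 12 samples of 7d). Esr1 counted 97.9 and 96.98 against 31.0 and 78.8, and Nr3c1 counted 1121 and 1001 against 1102 and 1157. Of the genes picked by the study, Cyp11a1 counted 0 and 2.85 against 3.10 and 6.30, and Akr1c3 counted 0 and 0 against 15.5 and 0, which are given with no test. Limma fitted 6 of the 9 genes here and called 0 beside 0.0 percent of all genes, and DESeq2 and edgeR called none of the 9. The 6 include Cyp11a1 and Akr1c3, whose fits are not read as a test. Pgr was the 1 gene at an unadjusted p below 0.05. With 2 samples on each side, the samples did not overlap for Esr1 and Pgr, as for 32.3 percent of all genes. Nor did they for Cyp11a1, where 1 read in replicate 7 (2.85) and 1 read in replicate 11 (3.10) differed only by the size factors.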

How the data were processed

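RNA of 24 rat urethras was sequenced as 3ʹ mRNA libraries (Lexogen QuantSeq). Per the paper's methods and the labels, reads were trimmed by the authors and mapped with HISAT2 on Rnor6.0. Those with several positions were discarded, HTSeq gave the reads per gene, and size factors from DESeq2 scaled them (the HISAT2 version is not given in the sources used here). The deposited signal is this normalized gene count. All values came out as whole reads (100 percent, tolerance 1e-06 of a read), from which read counts were back-calculated.

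Groups came from the labels. Genes with a mean of at least 2 were tested as log2(normalized gene count + 1) in 1 fit of the 6 groups with limma 3.58.1 in R 4.3.3 (trend, two-sided, Benjamini-Hochberg over all genes); recovered samples were compared within the 12 samples of 7d. DESeq2 1.42.0 and edgeR 4.0.16 were run on the back-calculated reads as alternatives, beside another pseudocount (5), a filter at 10 or none, equal totals, only the groups compared, a replicate block and leaving out samples. Scripts were tested on simulated data. Read-rate ratios have exact 95% intervals for counting error only, and reads carry no molecular identifiers. All 9 genes are named with values; from each list, up to 3 largest rises and falls among called genes; and for genes with a mean of at least 20, the 3 nearest by r. Members and lists were chosen with earlier results of these data known. Promoters are from RefSeq (GRCr8); no genome of the build was used. Some genes that the naming rule would give are not reported here.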

Additional observations from a re-analysis of the deposited data

Results flagged for a closer look

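Of 33 groups of 4 samples with values to check, 3 held a sample far from the others. For normally spread values chance alone gives about 1 in 20. These were counts, some near 0, and a group entered only if a sample had more than 3 reads, so that rate need not hold. Pgr counted 99.6 in MABs-allo 7d replicate 13, against 6.20 to 16.6 in the other 3 samples of that group. Nr3c2 counted 40.4 in MABs-allo-VEGF 3d replicate 3, against 0 to 5.41 in the others. Akr1c3 counted 15.5, which is 5 reads, in MABs-allo-VEGF 7d replicate 11, where the others were at 0.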

How the results depend on the processing

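Over 38 log2 fold changes of single genes, 1211 alternative values were computed: 1140 kept direction and side of the threshold, 52 kept direction but were no longer called, 19 became called and 0 turned direction. Many of these alternatives left out a sample outside the groups compared or changed only the filter. Those could change the adjusted p but not the fold change or its direction. Counts here are over all 8 fitted genes, Star included. Calls of Star are no support, since it passed the filter only through MABs-allo 3d. Nor are calls of Cyp11a1 that involve the cell-treated samples of 7d, from which the study picked that gene. For MABs-allo against saline at 3d, 3 were called with Star and 2 without it (Esr1 and Nr3c2), beside 9.4 percent of all genes called higher. None was called (0) when only these groups were fitted, edgeR called 1, and leaving out single samples gave 1 to 4 with Star. For MABs-allo-VEGF against saline at 3d, 3 were called in 22 samples (Esr1, Nr3c1 and Star), beside 11.4 percent of all genes called higher. That choice of samples widens the gap between treatments. For the difference of the MABs-allo effect between the days, 1 was called in the 22 samples (Nr3c1). For MABs-allo-VEGF against saline at 7d, DESeq2 called 1. Between 3d and 7d in saline, DESeq2 called 2 and edgeR 1, and leaving out single samples gave 0 to 3. Leaving out single samples gave 3 to 6 within MABs-allo and 1 to 3 within MABs-allo-VEGF. The cause of these changes was not tested, beyond fewer samples in the fit.

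With a replicate block for the shared numbers of MABs-allo and MABs-allo-VEGF at 3d, 0 genes were called, as without it. Deviations of same-numbered samples correlated at 0.22, 0.15, 0.073 and 0.25, all above 0, and those of differently numbered samples at -0.22 to 0.20. The labels name no pairs, so the samples were treated as unpaired. What the shared numbers stand for is not known. Over all genes, the number called moved by over 1.5 times in the 22 samples for MABs-allo-VEGF against saline at 3d (5 to 2213, with DESeq2 388 and edgeR 1), for 3d against 7d in saline (520 to 31, with DESeq2 1383 and edgeR 943) and for both differences of effect (0 to 579 and 585, with DESeq2 72 and 1). The choice of the 22 samples narrows the gap between days within saline. DESeq2 called 27 genes for MABs-allo-VEGF against saline at 7d, 4 against MABs-allo at 7d and 6 for the recovered samples, where limma called 0. At this depth, differences of Esr2 and Star between most groups were not detectable.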
